A study of Mus musculus with 4 samples.

Results

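The Rhox, Mage and Xlr families are groups of mostly X-linked genes with roles in germ cells, placenta and other reproductive tissue. Their members were chosen by gene symbol alone (Rhox genes with a number, Mage genes of the subfamilies a, b, d, e and h, and Xlr genes), which gave 61 of the 25239 genes in the count tables. These were 31 Rhox, 20 Mage and 10 Xlr genes. Polyadenylated RNA was counted per gene in 2 libraries of Ogt iKO mouse embryonic stem cells and 2 control libraries. All cells carried the genotype label Ogt fl/fl and grew with LIF and serum replacement on mitotically inactivated embryonic fibroblasts. Ogt iKO (inducible knockout, below also called knockout) cells received 4-OHT (4-hydroxytamoxifen) for 6 days, and control cells received none over the same 6 days. Viable cells were sorted before RNA extraction by a gate that the labels describe as removing feeders (they assign Thy1 antigen to the stem cells and EpCAM to the feeders, the reverse of the usual markers, so how far feeders were removed is uncertain), and only the treated cells were also selected for YFP, so treatment and selection cannot be told apart. The strain and the recombinase that acts on Ogt are not given in the sources used here. The labels do not say whether the libraries of a group came from separate cultures, so p values measure the spread between these libraries, which may be technical.

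Rhox genes encode homeobox transcription factors and lie in a single cluster that grew by tandem duplication. Its members are best known from testis, epididymis, ovary and placenta, and DNA methylation of their promoters keeps many of them silent in other tissues. MAGE proteins share a domain that binds RING ubiquitin ligases. Type I genes (here Magea and Mageb) are cancer-testis genes that demethylation can switch on, whereas type II genes (here Maged, Magee and Mageh) are active in many tissues. Xlr genes encode relatives of the synaptonemal complex protein SYCP3, and several are imprinted. OGT, the enzyme deleted here, attaches N-acetylglucosamine to nuclear and cytosolic proteins and binds the TET dioxygenases, which oxidise 5-methylcytosine. The study asked how its loss affects DNA methylation and transcription, and methylation itself was not analysed here.

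The 250 bases before the start sites of 4 members are shown because these genes carried the largest or most abundant changes described below: of the tested members, Rhox5 was the one that fell, Rhox13 and Rhox10 rose most, and Maged1 was the most abundant. Only the first start site listed for each gene was used, and which start is active in these cells was not tested. The sequences are from RefSeq (GRCm38.p6), and capitals mark CG dinucleotides, the sites of DNA methylation.
Rhox5: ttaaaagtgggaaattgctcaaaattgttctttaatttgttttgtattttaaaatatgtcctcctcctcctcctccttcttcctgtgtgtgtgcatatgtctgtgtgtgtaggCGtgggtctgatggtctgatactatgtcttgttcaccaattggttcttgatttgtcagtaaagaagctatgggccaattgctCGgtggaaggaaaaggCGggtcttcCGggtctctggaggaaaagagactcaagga
Rhox13: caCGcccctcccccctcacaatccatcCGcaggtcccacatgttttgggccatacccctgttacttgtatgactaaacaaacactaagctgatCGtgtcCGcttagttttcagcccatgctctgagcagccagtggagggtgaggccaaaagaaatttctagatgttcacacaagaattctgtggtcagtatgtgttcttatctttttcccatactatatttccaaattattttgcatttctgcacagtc
Rhox10: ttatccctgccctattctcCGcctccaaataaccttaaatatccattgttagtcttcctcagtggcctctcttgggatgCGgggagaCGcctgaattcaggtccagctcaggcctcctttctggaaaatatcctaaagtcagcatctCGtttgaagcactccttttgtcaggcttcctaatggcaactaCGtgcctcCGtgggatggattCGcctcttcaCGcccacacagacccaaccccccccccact
Maged1: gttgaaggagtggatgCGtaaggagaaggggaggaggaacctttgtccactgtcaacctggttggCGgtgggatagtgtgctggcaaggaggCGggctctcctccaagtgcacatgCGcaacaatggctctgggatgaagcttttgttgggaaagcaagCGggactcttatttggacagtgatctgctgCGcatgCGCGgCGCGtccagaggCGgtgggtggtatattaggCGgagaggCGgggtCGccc

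These stretches lie at chrX:37754358-37754607 on the plus strand for Rhox5, chrX:38120590-38120839 on the plus strand for Rhox13, chrX:38066225-38066474 on the plus strand for Rhox10 and chrX:94542026-94542275 on the minus strand for Maged1. They hold 4, 4, 8 and 14 CG dinucleotides. A promoter window of 300 bases (250 before and 50 after the start) was found for 53 of the 61 members. The median count of CG dinucleotides in it was 7 for the members and 7 for all 27025 promoters of the table. Counts ran from 0 in Rhox1, Magea3 and Magea5 to 20 in Maged1 and Mageb3. The E-box CACGTG, which reads the same on both strands and is bound by MAX and its partner MGA, occurred in 4 of the 53 windows (7.55%, against 7.24% of all promoters), those of Rhox4b, Rhox4e, Rhox4f and Rhox4g. The E2F motif GCGGGAA, searched on both strands, occurred only in that of Xlr (1.89%, against 4.66%).

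The libraries held 14668489 to 16504204 counts, where 0 counts leave room for a level of 3 counts, that is 0.175 to 0.196 CPM (counts scaled to a common library size by TMM). Such limits cover counting error only. Replicates differed by more than sampling noise (chi-square per degree of freedom 7.09 in Ogt iKO and 4.27 in control). Ogt had 437 and 389 counts in Ogt iKO and 2963 and 3108 in control (log2 fold change -2.96, adjusted p 2.49e-07, edgeR), so it was low in both libraries labelled as deleted. Stem cell markers were present in all libraries, with 0 of 9 higher and 8 lower in Ogt iKO. Across all genes, 33.2% were higher and 32.0% lower at an adjusted p under 0.05 (edgeR), the background for this and the lists below. All 14 fibroblast markers were detected, and their summed level was 3846 and 1566 CPM in Ogt iKO against 1787 and 1864 CPM in control (4 of 14 higher and 1 lower). The sum of Ogt iKO replicate 1 stood apart, while Tagln, Acta2, Pdgfrb and Sparc were higher in both Ogt iKO libraries than in both controls. Vim went the other way (255 and 156 CPM in Ogt iKO against 412 and 341 CPM in control). For the other 9 markers the groups overlapped. The trophoblast list summed to 398 and 412 CPM in Ogt iKO against 138 and 126 CPM in control (7 of 10 tested genes higher and 1 lower, with Tpbpa and Prl3d1 at 0). Most of the Ogt iKO sum was the keratin gene Krt18 (238 and 243 CPM, against 22.2 and 17.3 CPM in control). Tfap2c, the 1 lower gene, was at 17.6 and 17.6 CPM against 86.3 and 84.2 CPM. The primitive endoderm list summed to 252 and 169 CPM against 114 and 111 CPM (5 of 10 higher), and the 2-cell-like list to 166 and 177 CPM against 41.5 and 28.2 CPM (10 of 10 tested genes higher). In such lists, a gene that passed the filter on low counts only through its level in Ogt iKO had to differ. Examples are Sox17 (1 and 2 control counts) and Foxa2 (6 and 4), and the same limit applies to the 10 of 10. The germ cell list, the type these families are best known from, summed to 1257 and 1172 CPM in Ogt iKO and 639 and 588 CPM in control (6 of 12 higher and 5 lower). Its median log2 fold change was 0.24. The part of these cell types in the results below was not tested. In bulk RNA, a change in the number of cells of a type and a change in RNA per cell cannot be told apart.

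Most members had few or no counts. Of the 61, 28 had 0 counts in every library, another 12 had 1 to 4 counts over all libraries, 7 had more but failed the filter on low counts, and 14 were tested. Of those 14, 10 were higher in Ogt iKO and 1 was lower at an adjusted p under 0.05 (edgeR's quasi-likelihood test, Benjamini-Hochberg over 14525 genes), while 3 did not pass. Among all genes tested, 33.2% were called higher and 32.0% lower (4827 and 4651 genes). Scaling by library totals alone gave 6116 higher and 3282 lower genes, and the same 10 and 1 as numbers of members. A rise of at least 2-fold was called for 6 of the 14, against 14.9% of all genes. The groups did not overlap for 11 of the 14, against 83.2% of all genes, a share near the background. The tested members are those with enough RNA in at least 1 group, not the families as a whole, and a gene that passed only through its level in Ogt iKO had to differ. Rhox10 and Mageb4, both counted among the 10 and the 6, reached the level of that filter in both libraries of Ogt iKO but not of control. The median log2 fold change of the tested members was 0.90, beside 0.024 for all genes tested. Without control replicate 2, 6 members were higher. The 1 fall, that of Rhox5, was called in each fit that left out a library.

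**Figure D1:**
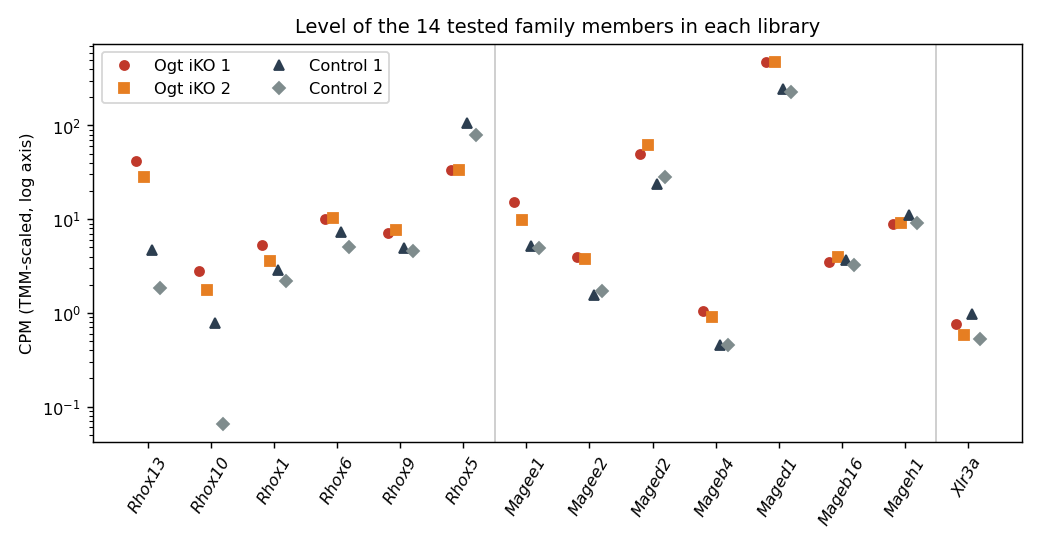
The plot gives the level of each of the 14 tested members in CPM on a log axis, with 1 point per library (2 Ogt iKO, 2 control), in the order Rhox, Mage, Xlr. Rhox5 lies lower in both Ogt iKO libraries than in both controls, Rhox13 lies far higher, and Mageb16, Mageh1 and Xlr3a overlap between the groups.

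**Figure D2:**
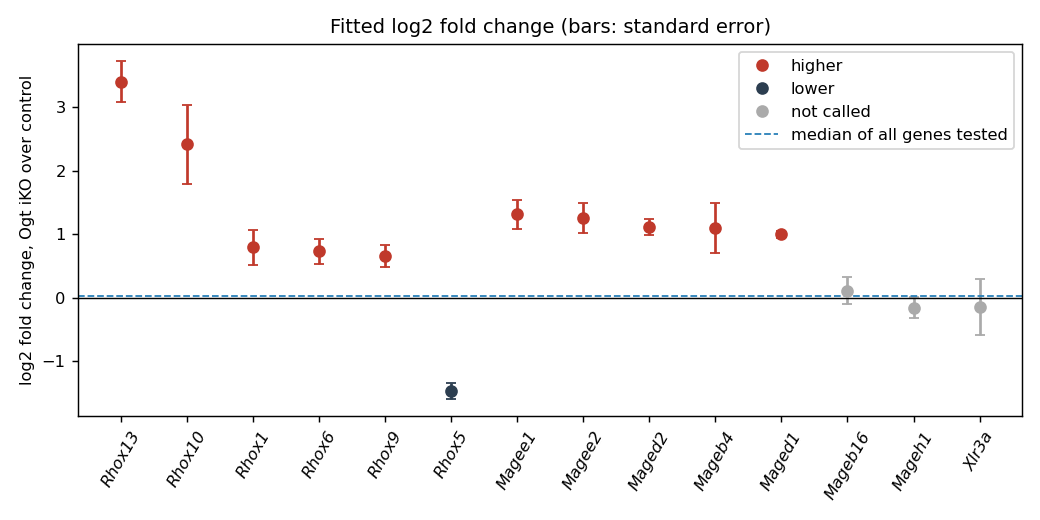
Points are fitted log2 fold changes of Ogt iKO over control for the same 14 members, bars are standard errors, and colours give the call at an adjusted p under 0.05. The values run from -1.47 for Rhox5 to 3.40 for Rhox13, and the dashed line marks the median of all genes tested, 0.024.

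All 31 Rhox genes lie on chromosome X between 37213804 and 38129966 (GRCm38), a span of 0.916 Mb that holds no other tested gene. Of them 19 had 0 counts throughout and 6 were tested: 5 were higher and 1 was lower, with the background shares of 33.2% and 32.0%. The first stretch, Rhox1 to Rhox4, has 22 members, of which Rhox1 alone was tested. The other 21 are tandem copies of Rhox2, Rhox3 and Rhox4, which together drew 9 counts over the 4 libraries. The second stretch, Rhox5 to Rhox9, held most Rhox counts in control, and the third, Rhox10 to Rhox13, summed to 5.49 and 1.89 CPM in control and to 44.2 and 29.8 CPM in Ogt iKO. That sum is a description over members and carries no test.

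**Figure D3:**
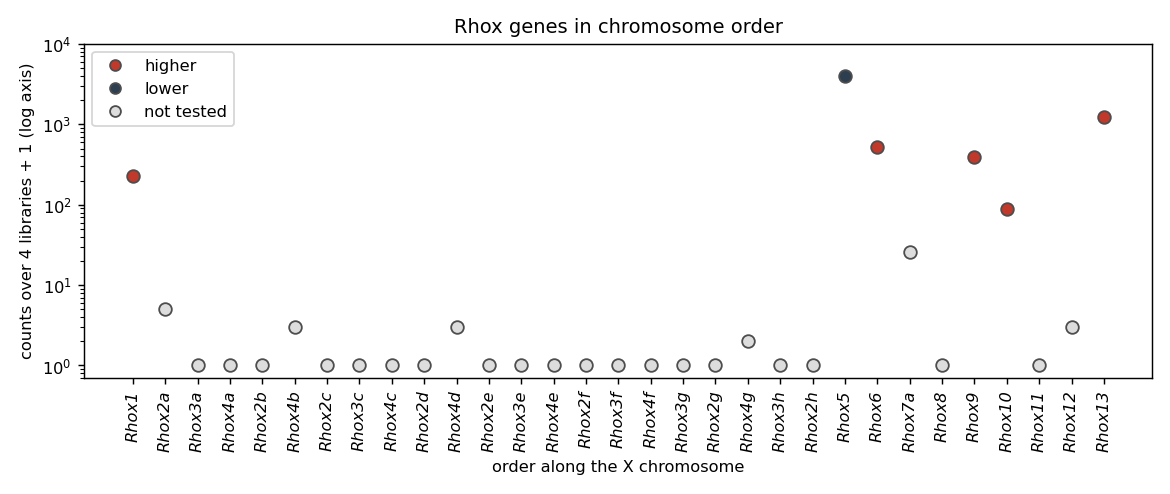
Rhox genes are shown in their order along the X chromosome, each point giving the counts over the 4 libraries plus 1 on a log axis, with colours for the call. Counts are near 0 from Rhox2a to Rhox2h, and the genes with counts sit at Rhox1 and from Rhox5 onwards, where the highest are Rhox5 (3940 counts) and Rhox13 (1242 counts).

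Rhox5, first described as Pem, is the family's founding member and the main Rhox gene of control stem cells. It lies on chromosome X from 37754608 to 37808878 and had 573 and 516 counts in the knockout libraries against 1642 and 1209 in the controls. Both Ogt iKO libraries were nearly level with each other and lay below both controls, which differed more. Controls averaged 92.5 CPM ± 19.3 (SD, n = 2), and knockout libraries 33.4 CPM ± 0.177 (SD, n = 2). The fall was to 36.1% of control (log2 change -1.47 with SE 0.131, adjusted p 2.87e-05 by edgeR).

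Rhox13, the last gene of the cluster, is known from the germ cells of fetal and adult testis. It lies from 38120840 to 38129966 and had 706 and 435 counts in the knockout libraries against 73 and 28 in the controls. The lower Ogt iKO library was still far above the higher control, although the libraries of each group differed from each other. Controls averaged 3.27 CPM ± 2.04 (SD, n = 2) and knockout libraries 34.7 CPM ± 9.37 (SD, n = 2), a rise of 10.6-fold (log2 change 3.40 with SE 0.328, adjusted p 4.21e-05 by edgeR). Its log2 fold change ran from 2.87 to 4.24 when libraries were left out in turn.

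Rhox10, a gene needed for spermatogonial stem cells to form, lies from 38066475 to 38071688 and had 48 and 27 counts in the knockout libraries against 12 and 1 in the controls. The groups did not overlap, but the controls were few counts apart from silence. Its log2 fold change was 2.42 (SE 0.622, adjusted p 0.00838, edgeR). The value depended on both controls: it was 1.54 without control replicate 2 and 4.97 without control replicate 1, and it was called in both fits. Between Rhox10 and Rhox13, Rhox11 had 0 counts and Rhox12 had 1 and 1 counts in Ogt iKO and 0 and 0 in control, although every 50-base window of their transcripts is unique. The genes on both sides of them rose, while Rhox11 was not detected, and Rhox12 had too few counts to be tested.

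Rhox6 and Rhox9, also known as Psx1 and Psx2, are close paralogs expressed in placenta and in germ cells. Rhox6 had 172 and 161 counts in the knockout libraries against 113 and 77 in the controls (log2 change 0.73 with SE 0.200, adjusted p 0.0116 by edgeR). Rhox9 had 123 and 120 counts against 76 and 70 (log2 change 0.65 with SE 0.177, adjusted p 0.0106 by edgeR). Both rose in parallel and to a similar degree, and for each the 2 groups did not overlap. Part of their transcripts is shared, with 83.5% and 93.7% of 50-base windows unique to Rhox6 and Rhox9. Neither was called without control replicate 2, where the log2 fold changes were 0.47 and 0.59, and DESeq2 did not call Rhox9 (adjusted p 0.0858).

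Rhox1, at the other end of the cluster (37213804 to 37222258), had 91 and 55 counts in the knockout libraries against 45 and 34 in the controls (log2 change 0.79 with SE 0.274, adjusted p 0.0310 by edgeR). The groups did not overlap, yet this was the weakest of the Rhox calls. It was not called without Ogt iKO replicate 1 (0.47, adjusted p 0.198), without control replicate 2 (0.60, adjusted p 0.162) or by DESeq2 (adjusted p 0.135). Rhox7a, between Rhox6 and Rhox8, was too low to be tested, with 8 and 9 counts in the knockout libraries against 7 and 1 in the controls. The ratio of its summed counts was 2.01, with an exact 95% counting interval from 0.821 to 5.38. Rhox8, known from Sertoli and granulosa cells, had 0 counts.

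Summed over the family, the Rhox genes hid these opposite changes. The sum was 101 and 85.7 CPM in Ogt iKO and 127 and 92.8 CPM in control, so one Ogt iKO library lay between the controls. The means were 93.2 CPM ± 10.7 (SD, n = 2) and 110.0 CPM ± 24.3 (SD, n = 2), a ratio of 0.848 that is within the spread of the replicates. Without Rhox5 the sum was 67.3 and 52.4 CPM in Ogt iKO against 21.1 and 14.0 CPM in control, a ratio of 3.42 with no overlap.

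The make-up of the family's RNA is given as shares. Rhox5 held 83.4% of Rhox counts in control replicate 1 (exact Clopper-Pearson 95% interval 81.7 to 85.1%) and 85.0% in control replicate 2 (83.0 to 86.8%). In Ogt iKO it held 33.3% (31.0 to 35.5%) and 38.8% (36.2 to 41.5%). Rhox13 held 3.71% (2.92 to 4.64%) and 1.97% (1.31 to 2.83%) in control, and 41.0% (38.6 to 43.3%) and 32.7% (30.2 to 35.3%) in Ogt iKO. These intervals cover counting error only, and replicates of a group differed by more than that. Rhox5 held most Rhox counts in both controls, while in Ogt iKO it ranked below Rhox13 in replicate 1 and above it in replicate 2. Per kilobase of exon, Rhox5 and Rhox13 stood at 123 and 3.73 CPM per kb in control and at 44.3 and 39.6 CPM per kb in Ogt iKO. Rhox6 was at 6.10 CPM per kb in control, above Rhox13, and at 10.1 CPM per kb in Ogt iKO, below it.

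**Figure D4:**
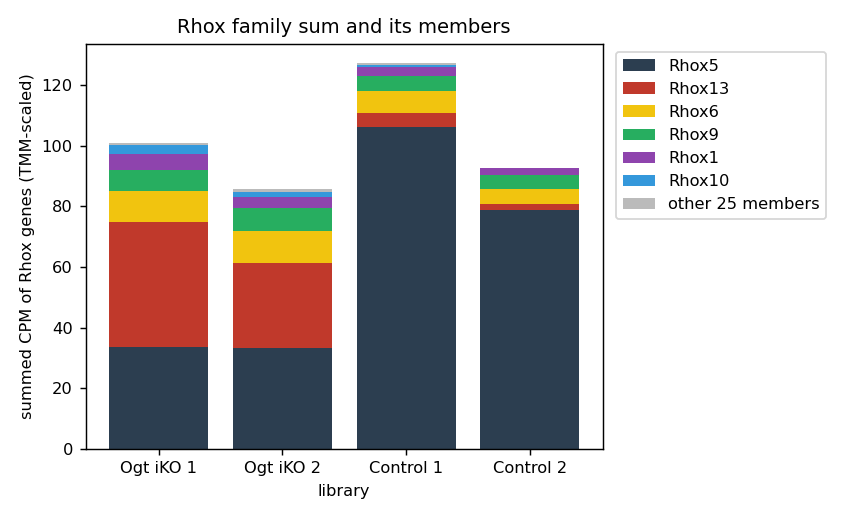
Each bar is the summed level of the 31 Rhox genes in 1 library in CPM, split by member. The bar heights of the groups overlap (101 and 85.7 CPM in Ogt iKO, 127 and 92.8 CPM in control), whereas the Rhox5 segment shrinks and the Rhox13 segment grows in Ogt iKO.

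Mage genes were counted by type. All 5 type II genes were tested, 4 were higher in Ogt iKO and 1 did not pass, whereas 2 of the 15 type I genes were tested and 1 of those was higher (background 33.2% higher). Summed, type II genes stood at 553 and 556 CPM in Ogt iKO and 287 and 272 CPM in control. Type I genes stood at 5.26 and 5.16 CPM against 4.46 and 3.78 CPM. The ratio of the type II sums was 1.98 and that of the type I sums 1.26, and whether these differ was not tested.

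Maged1 (NRAGE), an adaptor of the p75 neurotrophin receptor, dominated the family. It lies on chromosome X from 94535474 to 94542025 and had 8114 and 7308 counts in the knockout libraries against 3801 and 3504 in the controls. Replicates agreed closely and the groups were well apart, at 473 CPM ± 2.45 and 237 CPM ± 12.1 (SD, n = 2 each). The log2 fold change was 1.00 (SE 0.0596, adjusted p 4.34e-06, edgeR). Maged1 held 82.7 to 85.1% of all Mage counts in each of the 4 libraries.

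Maged2, whose human counterpart is mutated in a transient antenatal form of Bartter syndrome, had 853 and 967 counts in the knockout libraries against 365 and 433 in the controls (log2 change 1.11 with SE 0.128, adjusted p 0.000108 by edgeR). It lies from 150806421 to 150814362, far from Maged1, and the groups did not overlap. Magee1 (DAMAGE), a partner of dystrobrevin, had 262 and 153 counts against 80 and 76 (log2 change 1.32 with SE 0.228, adjusted p 0.00105 by edgeR). Its higher library was Ogt iKO replicate 1, and its log2 fold change was 0.97 without that library. Magee2, its neighbour on the chromosome (104854952 to 104857267, with Magee1 at 105120378 to 105123961), had 68 and 59 counts against 24 and 26 (log2 change 1.26 with SE 0.241, adjusted p 0.00182 by edgeR). Mageh1 (153036166 to 153037563), the remaining type II gene, had 153 and 141 counts against 171 and 139 and did not pass (log2 change -0.16 with SE 0.163, adjusted p 0.420 by edgeR). The 2 groups overlapped for Mageh1, and they did not for the other type II genes.

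Among type I genes, Mageb16 was the most abundant. Its counts were 60 and 62 in Ogt iKO and 57 and 50 in control, so the groups overlapped in CPM (log2 change 0.11 with SE 0.216, adjusted p 0.673 by edgeR). Its counts are uncertain, since 44.9% of its 50-base windows are unique and the gene that shares most with it is the pseudogene Mageb16-ps2. Mageb4 had 18 and 14 counts against 7 and 7 (log2 change 1.10 with SE 0.392, adjusted p 0.0356 by edgeR). Its counts are uncertain too, with 49.9% of windows unique and the pseudogene Mageb10-ps closest. That call did not hold in any of the 4 fits that left out a library (adjusted p 0.0632 to 0.163), with DESeq2 (0.339) or without a filter on low counts (0.0615). The log2 fold change itself was 0.98 to 1.18 with libraries left out, 1.10 with DESeq2 and 1.08 without a filter. The 13 untested type I genes held few counts: 8 had 0 counts in all libraries, among them Magea1, Magea2, Magea3, Magea6 and Magea8. Magea4 and Magea10 each had 4 and 0 counts in Ogt iKO and 2 and 0 in control. Mageb3, the only member off chromosome X (chromosome 2, 121953771 to 121956092), had 2 and 1 counts against 1 and 1. Mageb18, named after its values were seen, had 2 and 2 counts against 0 and 0 (adjusted p 0.140 with no filter on low counts, edgeR).

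The Mage sum was set beside feeder-type RNA. It was 558 and 561 CPM in the 2 Ogt iKO libraries, whose fibroblast marker sums were 3846 and 1566 CPM, and 291 and 276 CPM in control. Without Ogt iKO replicate 1 the log2 ratio of the Mage sums was 0.98, the same as with it. The log2 fold changes of the tested Rhox genes without that library were -1.47 (Rhox5), 3.10 (Rhox13), 2.03 (Rhox10), 0.76 (Rhox6), 0.71 (Rhox9) and 0.47 (Rhox1). That of Rhox1 was 0.79 with it. The remaining Ogt iKO library also held fibroblast marker RNA, so leaving 1 library out does not remove it. The part of feeder RNA in these values was not tested.

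The Xlr family had few counts, and 8 of its 10 genes have under 50% of 50-base windows unique to them, so low counts do not show low RNA. The 10 genes drew 34 and 25 counts in Ogt iKO and 25 and 11 in control, and 1 gene, Xlr3a, was tested. Xlr3a had 13 and 9 counts against 15 and 8, with overlapping groups (log2 change -0.15 with SE 0.442, adjusted p 0.786 by edgeR). Xlr itself, apart from the others at 53777118 to 53797716, had 8 and 5 counts against 2 and 2, a ratio of 3.07 with an exact 95% counting interval from 0.949 to 12.9. Xlr4a had 5 and 7 counts against 1 and 0, a ratio of 11.3 with an interval from 1.68 to 485. With no filter on low counts, Xlr4a passed the threshold (adjusted p 0.0426, edgeR) and Xlr did not (0.120). Of the windows of Xlr4a 22.3% are unique, with Xlr4c closest, so its counts are uncertain. Xlr3c had 6 and 2 counts against 4 and 1, a ratio of 1.51 with an interval from 0.436 to 5.87. Of the 9 Xlr genes in the dense cluster from 73074343 to 73293863, 5 had 1 or 2 counts in all and Xlr5b had 0.

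Many members with 0 counts have near-identical copies. Reads that fit several genes equally may be missing from the counts, since how such reads were treated is not given in the sources used here. For each member the share of 50-base windows of its GENCODE transcripts that occur in no other gene's transcript was therefore computed. Of 36 members with under 50% unique windows, 2 were tested and 22 had 0 counts. Of 25 members with a larger share, 12 were tested and 6 had 0 counts. With windows of 100 bases, 24 members had under 50% unique windows, of which 1 was tested and 15 had 0 counts. Every window of Rhox2e occurs in another gene, and 3.01% of those of Rhox3a are unique. A count of 0 for these copies therefore says little about their RNA. Rhox11 and Rhox8, with 100% and 95.1% unique windows, were at 0 as well. No exon of a member lay under another gene's exon on the opposite strand, except 3.93% of the exon length of Mageb3, under Ctdspl2.

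**Figure D5:**
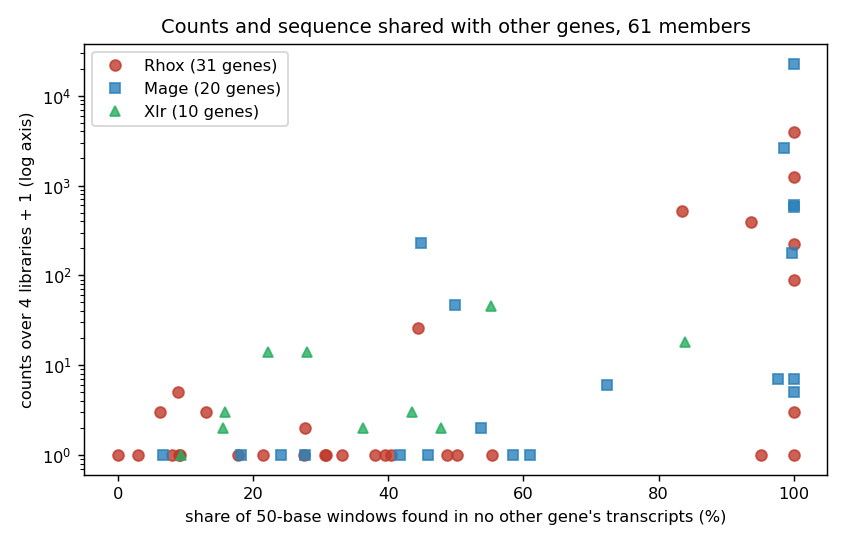
Each point is 1 of the 61 members, with the share of 50-base windows found in no other gene's transcripts on the x axis and the counts over 4 libraries plus 1 on a log y axis. Members at the left have few or no counts, and the highest counts (Maged1 and Rhox5) belong to genes whose windows are all unique.

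The surrounding chromosome was set beside the families. Of 535 tested X-linked genes outside them, 43.7% were higher and 24.1% lower, with a median log2 fold change of 0.24. The nearest tested gene before the Rhox cluster, Gm9 at 2.76 kb, had 17 and 10 counts in the knockout libraries against 39 and 13 in the controls and did not pass (adjusted p 0.115, edgeR). The nearest after it, Zbtb33 at 59.8 kb, encodes Kaiso, a protein that binds methylated DNA, and had 750 and 580 counts against 464 and 427 (log2 fold change 0.49, adjusted p 0.00253, edgeR). Of the nearest tested genes on either side of the Xlr cluster, Pnma5 fell (log2 fold change -1.11, adjusted p 0.000430) and Zfp275 did not pass (adjusted p 0.0520, edgeR). Those of the cluster of 6 Magea genes were Spin2c, 1090 kb before it (log2 change 1.85, adjusted p 5.95e-05), and Sat1, 123 kb after it (0.97, adjusted p 0.000100, edgeR). Both rose, while the 6 Magea genes together had 1 count. The Y-linked genes Ddx3y, Eif2s3y, Kdm5d and Uty averaged 116, 129, 33.1 and 59.9 CPM in control, and Xist averaged 1.56 CPM there and 2.05 CPM in Ogt iKO. The source of the Y-linked reads in a line labelled fl/fl for an X-linked gene was not tested.

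MAGE relatives outside the naming rule were set beside the family. Of 4 such genes tested, 3 were higher, where all genes gave 33.2%. Magel2 had 148 and 128 counts in the knockout libraries against 27 and 17 in the controls (log2 fold change 2.56, adjusted p 4.12e-05, edgeR), and the imprinted gene Ndn, which encodes necdin, had 736 and 707 against 280 and 240 (1.39, adjusted p 9.13e-06). Tro, a Mage-D relative that encodes trophinin, rose by 0.98 (adjusted p 1.24e-05). Nsmce3, the MAGE subunit of the SMC5/6 complex, did not pass (0.025, adjusted p 0.814). Genes for proteins that MAGE domains bind were counted too. Of 9 RING ligases and SMC5/6 subunits, 1 was higher (Pja2, 0.30) and 3 were lower, a share near the 32.0% of all genes, with Trim28 at -0.63, Trim27 at -0.61 and Nsmce1 at -0.84 on the log2 scale. Sycp3, the relative of Xlr, fell from 263 and 267 counts to 93 and 136 (-1.28, adjusted p 0.000711), while Slx, Slxl1 and Sly had 0 counts.

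Other X-linked reproductive genes were also divided. Of 14 tested, 8 were higher and 3 were lower, with a median log2 fold change of 1.54, beside the 43.7% higher and 24.1% lower given above for X-linked genes outside the families. Among the 8, Tex16 (3 and 6 control counts), Plac1 (4 and 3), Fthl17a and Tex13b (12 and 5 each) reached the filter level in both libraries of Ogt iKO but not of control. A gene that passed only through its level in Ogt iKO had to differ, which raises the count and the median. Taf7l, a germ cell variant of a TFIID subunit, rose from 364 and 212 counts to 3028 and 2750, and the RNA export factor Nxf2 rose from 38 and 25 counts to 374 and 351. Esx1, a placental homeobox gene, rose from 340 and 333 counts to 2233 and 1688 (log2 fold change 2.45, adjusted p 9.55e-07, edgeR). Nr0b1, a stem cell and gonadal regulator, fell by 1.51 on the log2 scale (adjusted p 2.35e-05).

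Genes known to control these families were counted last. Of 17 tested genes of DNA methylation and H3K9 silencing, 5 were higher and 10 were lower, where all genes gave 33.2% and 32.0%. The 4 with the smallest adjusted p were Dnmt3l, a cofactor of the de novo methyltransferases (log2 fold change 1.31), the dioxygenase gene Tet3 (1.33), the de novo methyltransferase gene Dnmt3a (-0.96) and Uhrf1 (-0.90), whose protein recruits the maintenance methyltransferase. Of 14 tested genes of PRC1.6 and its partners, the Polycomb complex that represses germline genes through MGA, MAX and E2F6, 2 were higher and 10 were lower. E2f6 rose by 0.91 and Pcgf6, the subunit that defines the complex, had a log2 fold change of -0.65 (adjusted p 2.48e-05 and 5.56e-05, edgeR). Cbx3 (-0.76) and Hdac2 (-0.57) fell as well. No relation between these genes and the families was tested.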

How the data were processed

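The authors deposited raw counts per gene symbol for each of 4 libraries, with no normalization and 0 rows that name no gene. STAR and Picard, without versions, and the build mm10 are named in the submitters' processing notes. The annotation, the strand counted and the handling of reads at several loci are not given in the sources used here. All genes were fitted in R 4.3.3 by the quasi-likelihood method of edgeR 4.0.16 (TMM, filterByExpr, both groups in 1 fit, no covariate), with Benjamini-Hochberg adjustment over 14525 genes and a threshold of 0.05. The fit was tested on simulated data. CPM use TMM-scaled library sizes, and SD is over 2 libraries. Family sums have no test. An exact test between 2 and 2 libraries cannot reach the threshold, so no single value was tested alone. Positions and promoters came from RefSeq GRCm38.p6 (61 of 61 and 53 of 61 members matched), and exons and transcripts from GENCODE M21 of the same assembly.

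Members, gene lists and tests were chosen with earlier results of these data known. All tested members are named. Counts in every library are given for the 6 members of each family with the smallest adjusted p and the 2 with most counts, and for untested members of at least 5 counts. Of each list up to 4 genes with the smallest adjusted p are named, and the nearest tested gene on each side of a cluster. Silent or scarce members, and list genes, named beyond this rule were chosen after their values were seen. Alternatives were RLE, upper-quartile and total-count scaling, DESeq2 1.42.0, other filters, robust dispersion, a replicate block, an adjusted p under 0.01 and leaving out each library.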

Additional observations from a re-analysis of the deposited data

How the results depend on the processing

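The fall of Rhox5 and the rises of Rhox13, Rhox10, Maged1, Maged2, Magee1 and Magee2 were called in all 12 refits. Rhox1, Rhox6, Rhox9 and Mageb4 each lost their call in at least 1. Of the 10 members called higher, 6 were called at an adjusted p under 0.01, and 6 to 9 when libraries were left out in turn (6 without control replicate 2). For Rhox alone the 5 became 3 with DESeq2, 2 at an adjusted p under 0.01 and 2 to 5 with libraries left out. The replicate numbers share only a number (correlation of deviations 0.086 over 14525 genes). With the replicate block 9 members were higher and 1 lower, and Mageb4 lost its call (adjusted p 0.0554). The log2 ratio of the Rhox sums, -0.24, turned to 1.77 without Rhox5 and to 0.76 as a median over tested members, and ran from -0.45 to 0.0071 with libraries left out, the last without control replicate 1. That of the Mage sums, 0.98, was 1.15 with library totals, 0.89 without Maged1 and 1.10 as a median. That of the Xlr sums, 0.63, was 1.42 without Xlr3a and -0.15 as a median, which is Xlr3a alone, and ran from 0.16 to 1.33 with libraries left out. Members without a call changed sign: Mageh1 (0.013) and Xlr3a (0.022) under library totals, Mageb16 (-0.0083) and Xlr3a (0.0035) without Ogt iKO replicate 2, and Xlr3a (0.36) without control replicate 1. With libraries left out, Mageb16 ran from -0.0083 to 0.21 and Xlr3a from -0.53 to 0.36. Library totals shifted the median of all genes from 0.024 to 0.19. The cause of these changes was not tested where the setting itself does not show it. For untested members that share most of their sequence with copies, lost reads and low RNA cannot be told apart.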

Other observations

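Magea4 and Magea10, which lie close together on the X chromosome away from the Magea cluster, had the same counts in every library (4 and 0 in Ogt iKO, 2 and 0 in control), and were singled out after their values were seen. Their transcripts share no 50-base window, with 97.7% and 100% of windows unique to Magea4 and Magea10. In both genes the counts lay in replicate 1 of each group. With so few counts the match is given as a value only.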
